A study of Mus musculus with 4 samples.

Results

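The genes that make, load and regulate the antigen-presenting molecules of the major histocompatibility complex (MHC) were followed across a mouse brain tumour and the brain around it. They were all measured features whose symbol starts with H2-, together with B2m, Cd74, Tap1, Tap2, Tapbp, Tapbpl, Nlrc5, Ciita, Psmb8, Psmb9, Psmb10, Erap1, Psme1, Psme2 and Psme2b, and 47 of them had counts among 20458 features with counts. H2-T3 and H2-M10.5 had none. The 47 were 3 classical class I genes, 20 non-classical class I genes, 11 genes of peptide supply, 5 class II chain genes with Cd74 counted among them, 5 genes of class II peptide exchange, the regulators Nlrc5 and Ciita, and H2-Ke6. The last is a steroid dehydrogenase gene of the MHC region with no known part in antigen presentation, and it is kept apart.

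The samples were formalin-fixed, paraffin-embedded brain sections of mice whose brains had been inoculated with a tumour that was then resected. Capture areas labelled TREAT, from animals given a hydrogel, and capture areas labelled Vehicle were all taken at day 11, with 2 areas per group (TREAT 1+4, TREAT 2+3, Vehicle 1+4 and Vehicle 2+3). The tumour line, the mouse strain, the animals' age and what the hydrogel carried are not given in the sources used here. Each area held 2 separate pieces of tissue, the series states 4 animals in all, and nothing ties a piece to an animal, so p-values measure the spread between areas and this spread may be partly technical. Transcripts were read with probe pairs on an array of barcoded spots, and a spot can hold several cells of different types. Levels are given as scaled CPM, which is the UMI count of a gene in the summed spots scaled to a common total (CPM) and divided by a scaling factor between sums, and they can be compared between areas and regions but not between genes, since probes differ in efficiency.

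Per area, 3349 and 3012 spots were kept in TREAT 1+4 and TREAT 2+3, against 3157 and 3485 in Vehicle 1+4 and Vehicle 2+3, with 56150597 and 51081123 UMIs over tissue in TREAT, against 34202695 and 45960125 in Vehicle. Spots were divided by clusters built without the members and without a list of interferon-induced genes, so that the members played no part in the division. Tumour spots numbered 182 and 554 in TREAT, against 894 and 1221 in Vehicle, and brain spots numbered 2828 and 2217, against 2017 and 1761. Of these, 182 and 551 TREAT spots, against 0 and 14 Vehicle spots, lay in cluster 8, led by Col9a1 and Tubb6, and 0 and 3 TREAT spots, against 894 and 1207 Vehicle spots, lay in cluster 0, led by Hist4h4 and Lgals7. In tumour spots the 23 proliferation markers summed to 3302 and 2724 scaled CPM in TREAT and 3960.0 and 3845 in Vehicle, and in brain spots to 97.5 and 154 (TREAT) and 154 and 266 (Vehicle). The 19 neuronal markers showed the opposite, with 234 and 284 in TREAT tumour spots and 336 and 295 in Vehicle tumour spots, and with 13163 and 14348 (TREAT) and 17561 and 15608 (Vehicle) in brain spots. Array barcodes recur between areas by design, with 2276 to 2746 shared between any pair.

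MHC class I molecules show peptides from inside the cell to CD8 T cells and are made by most cell types. Their heavy chains fold with beta-2 microglobulin, the product of B2m, and take up peptides that the immunoproteasome cuts and the Tap1 and Tap2 transporter carries into the endoplasmic reticulum. MHC class II molecules show peptides from outside the cell to CD4 T cells and are mainly made by dendritic cells, macrophages and B cells. Healthy brain tissue has little of either, and both rise in many cells under interferon gamma, class I through the transactivator Nlrc5 and class II through Ciita.

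Most members lie in the MHC region of chromosome 17, among them Tapbp (17:33919478-33929290), H2-K1 (17:33996012-34000619), Psmb9 (17:34182030-34187330), Tap1 (17:34187556-34197225), H2-Ab1 (17:34263227-34269418), H2-Aa (17:34282744-34287823), H2-Eb1 (17:34305867-34316674) and H2-D1 (17:35263094-35267497), in GRCm38.p6. Elsewhere lie B2m (2:122147687-122153082), Nlrc5 (8:94434335-94527272) and Ciita (16:10480014-10531064).

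Promoter sequence shows what the classical genes and class II genes have in common at the DNA level, and RefSeq entries (GRCm38.p6) were found for 39 of the 47 genes. The 250 bases before the start site are printed 5′ to 3′ for 6 genes that the results below turn on. The H2-K1 window lies inside the gene span given above, so it refers to a start site other than the end of that span. Capitals mark the motifs searched on both strands, which were TGACG (the core of the X2 box), ATTGG (the Y box, which reads CCAAT on the other strand), TTTC followed by any 2 bases and TTTC (an interferon regulatory factor element) and GGGGANTCC (a kappa B site).
H2-K1 (chr17:34000348-34000597, minus strand): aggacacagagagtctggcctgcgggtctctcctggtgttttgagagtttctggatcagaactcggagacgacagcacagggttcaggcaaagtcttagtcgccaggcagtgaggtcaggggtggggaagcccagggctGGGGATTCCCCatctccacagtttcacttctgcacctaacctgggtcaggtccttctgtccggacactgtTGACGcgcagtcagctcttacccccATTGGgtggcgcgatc
H2-D1 (chr17:35262844-35263093, plus strand): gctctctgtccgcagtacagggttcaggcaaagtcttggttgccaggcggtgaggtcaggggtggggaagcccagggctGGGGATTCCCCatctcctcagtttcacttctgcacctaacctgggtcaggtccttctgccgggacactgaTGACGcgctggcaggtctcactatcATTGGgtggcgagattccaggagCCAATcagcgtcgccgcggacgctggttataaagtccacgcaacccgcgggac
B2m (chr2:122147437-122147686, plus strand): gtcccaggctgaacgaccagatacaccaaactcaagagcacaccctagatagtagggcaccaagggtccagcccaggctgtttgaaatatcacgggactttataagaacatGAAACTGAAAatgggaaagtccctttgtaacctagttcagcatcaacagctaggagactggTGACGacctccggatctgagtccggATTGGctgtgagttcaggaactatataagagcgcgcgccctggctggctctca
Tap1 (chr17:34187306-34187555, plus strand): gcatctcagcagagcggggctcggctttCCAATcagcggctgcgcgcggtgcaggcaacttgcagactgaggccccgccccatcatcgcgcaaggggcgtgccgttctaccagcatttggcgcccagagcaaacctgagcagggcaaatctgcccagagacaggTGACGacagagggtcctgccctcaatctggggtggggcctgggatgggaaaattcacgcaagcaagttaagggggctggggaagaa
H2-Aa (chr17:34287824-34288073, minus strand): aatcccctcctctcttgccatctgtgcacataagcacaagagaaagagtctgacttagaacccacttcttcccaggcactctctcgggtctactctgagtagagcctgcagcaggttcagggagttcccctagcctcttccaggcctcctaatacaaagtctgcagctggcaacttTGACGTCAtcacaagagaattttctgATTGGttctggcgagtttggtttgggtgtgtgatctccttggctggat
H2-Eb1 (chr17:34305617-34305866, plus strand): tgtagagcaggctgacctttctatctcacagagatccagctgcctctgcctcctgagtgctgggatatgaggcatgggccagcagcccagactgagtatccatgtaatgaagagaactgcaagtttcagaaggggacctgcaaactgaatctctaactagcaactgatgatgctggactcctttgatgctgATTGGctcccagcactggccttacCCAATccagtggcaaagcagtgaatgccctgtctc

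The X2 core and the Y box stood 20 bases apart in H2-K1, H2-D1 and B2m and 21 bases apart in H2-Aa. A pair with a gap of 20 or 21 bases, on either strand, was found for 5 of the 39 members with an entry (12.8%), the fifth being H2-M3, and in 50 of 32851 promoter windows of the same length (0.152%). This gap is the one seen in the genes just named, so their matches were fixed in advance and the 12.8% is no independent result. Members were counted by gene and the background by window. A Y box was found in 31 of the 39 members, against 33.8% of all windows. Among them were all 8 class II genes with an entry, all 3 classical class I genes, 16 of 18 non-classical genes and 3 of 9 peptide supply genes. The X2 core was found in 15 of the 39, against 17.8% of all windows. It was in all 3 classical class I genes, 8 of 18 non-classical genes and 3 of 9 peptide supply genes. Among the 8 class II genes it was found in H2-Aa. The kappa B site was found in H2-K1, H2-D1, H2-Q6, H2-Q7 and H2-Q10, against 1.04% of all windows, and its forward and reverse matches overlap in the run GGGGATTCCCC printed for H2-K1 and H2-D1. The interferon element was found in B2m, H2-T22 and H2-T23, against 2.98% of all windows. Only exact matches to each pattern were counted, so a window without one is not shown to lack a variant of that element. The Tap1 window shares 225 bases with that of Psmb9, which is read from the opposite strand. These matches describe the letters in these windows and say nothing on which factors bind there.

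Tumour spots held far more class I, class II and peptide supply RNA than brain spots in every capture area. By edgeR's quasi-likelihood test with the area as a block, 30 of 45 tested members were higher in tumour spots and 3 were lower, at a Benjamini-Hochberg adjusted p under 0.05. Over all genes 66.4% passed, 31.5% higher and 35% lower. The members' median log2 fold change was 2.15, beside 0.03 over all genes. Each of the 30 also passed in all alternatives in which it was tested, DESeq2 and the left-out areas among them. A spot's RNA comes from several cells, so more cells of a type and more RNA per cell cannot be told apart.

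All 3 classical class I genes were higher in tumour spots. B2m, the light chain shared by all class I molecules, had 4478 and 6162 scaled CPM in the tumour spots of TREAT 1+4 and TREAT 2+3 and 7219.5 and 7932 in those of Vehicle 1+4 and Vehicle 2+3, against 579.9 and 871 (TREAT) and 975 and 1614 (Vehicle) in the brain spots of the same areas. Its log2 fold change was 2.74 ± 0.15 (SE, adjusted p = 3.86e-07), and the lowest tumour value lay above the highest brain value. H2-K1, a classical heavy chain, had 812 and 632 scaled CPM in TREAT tumour spots and 883 and 801 in Vehicle tumour spots, against 56.8 and 80.4 (TREAT) and 89.4 and 131 (Vehicle) in brain spots (log2 fold change 3.18 ± 0.20). H2-D1, the other classical heavy chain, had 974 and 1052 (TREAT) and 1925 and 1644 (Vehicle) in tumour spots, against 131 and 171 (TREAT) and 242 and 367 (Vehicle) in brain spots (log2 fold change 2.67 ± 0.16). Tumour and brain values of these genes did not overlap.

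Among non-classical class I genes, 8 of the 18 tested were higher in tumour spots. H2-T23, which encodes the Qa-1 molecule recognised by natural killer receptors, had 144 and 272 scaled CPM in TREAT tumour spots and 395 and 362 in Vehicle tumour spots, against 39.1 and 71.4 (TREAT) and 72.0 and 91.5 (Vehicle) in brain spots (log2 fold change 2.06 ± 0.13). H2-M3, which presents N-formylated peptides of bacteria and mitochondria, had 75.8 and 85.6 (TREAT) and 95.5 and 113 (Vehicle) in tumour spots, against 15.7 and 15.8 (TREAT) and 19.2 and 31.3 (Vehicle) in brain spots (2.22 ± 0.13). H2-T22, a ligand of some gamma delta T cells, was also higher (2.90 ± 0.11), and so were H2-Q4, H2-Q6, H2-Q7, H2-T24 and H2-M2, with log2 fold changes of 1.08 to 2.15. H2-M2 passed at a very low level, with 2.63 and 1.36 (TREAT) and 0.87 and 2.29 (Vehicle) scaled CPM in tumour spots, against 0.917 and 0.871 (TREAT) and 0.58 and 0.641 (Vehicle) in brain spots. H2-Q2 was lower, although its log2 fold change was 0.64 with cortical clusters alone as brain, and the other 9, H2-Q1, H2-Q10, H2-M1, H2-M5 and the H2-M10 genes, had at most 4.16 scaled CPM in any tumour or brain sum. H2-M9 and H2-M11 did not pass the filter on low counts. Genes of the H2-Q, H2-T and H2-M10 families are close copies of each other, and the sources used here do not say how far their probes tell them apart.

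Of the role groups, peptide supply had the highest median log2 fold change, 3.53, with 10 of its 11 genes higher and 1 lower. Psmb8, a catalytic subunit that the immunoproteasome carries in place of a constitutive one, had 1176 and 1423 scaled CPM in TREAT tumour spots and 1596 and 1839 in Vehicle tumour spots, against 34.5 and 80.2 (TREAT) and 71.0 and 146 (Vehicle) in brain spots (log2 fold change 4.34 ± 0.24, adjusted p = 3.63e-07). The other immunoproteasome subunits Psmb9 and Psmb10 had log2 fold changes of 4.28 and 2.84, and both transporter chains were higher, Tap1 by 4.27 and Tap2 by 3.69. Tapbp encodes tapasin, which holds the empty class I molecule at the transporter. It had 396 and 987 (TREAT) and 2144 and 2155 (Vehicle) in tumour spots, against 69.0 and 113 (TREAT) and 161 and 234 (Vehicle) in brain spots (log2 fold change 3.15 ± 0.19). Psme1, a subunit of the PA28 proteasome activator, had 1466 and 1096 (TREAT) and 1378 and 1244 (Vehicle) in tumour spots, against 79.0 and 113 (TREAT) and 124 and 154 (Vehicle) in brain spots (log2 fold change 3.49 ± 0.20).

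Psme2, the gene for the other PA28 subunit, is singled out here after its values were seen. It had 6.23 and 6.12 scaled CPM in TREAT tumour spots and 8.35 and 8.07 in Vehicle tumour spots, against 12.3 and 8.74 (TREAT) and 16.6 and 17.2 (Vehicle) in brain spots (log2 fold change -0.89 ± 0.16, adjusted p = 0.00102). With cortical clusters alone as brain it was no longer past the threshold (log2 fold change -0.35, adjusted p = 0.154). Psme2b, a copy of Psme2 on chromosome 11, went the other way, with 213 and 115 (TREAT) and 325 and 306 (Vehicle) in tumour spots, against 14.9 and 11.8 (TREAT) and 24.4 and 32.3 (Vehicle) in brain spots (log2 fold change 3.53 ± 0.14). Psme2 itself lies on chromosome 14. Counts of such near-identical genes are uncertain, since reads of one can be assigned to the other.

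The class II chains were higher in tumour spots by a similar margin. Cd74, the invariant chain that guards the class II groove until it meets peptide, had 1992 and 2752 scaled CPM in TREAT tumour spots and 3015 and 3313 in Vehicle tumour spots, against 167 and 299.9 (TREAT) and 246 and 550.2 (Vehicle) in brain spots (log2 fold change 3.25 ± 0.19, adjusted p = 6.08e-07). The chain gene H2-Ab1 had 376 and 502 (TREAT) and 686 and 720.0 (Vehicle) in tumour spots, against 28.4 and 53.9 (TREAT) and 42.4 and 111 (Vehicle) in brain spots (3.41 ± 0.22). H2-Aa, its partner in the I-A heterodimer, and H2-Eb1, a chain of I-E, had log2 fold changes of 3.24 and 3.25. H2-Eb2 had at most 1.39 scaled CPM in any tumour or brain sum and did not pass (-0.54, adjusted p = 0.323).

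Of the class II peptide exchange genes, H2-DMa and H2-DMb1, which encode the chains of the DM molecule that edits class II peptides, were higher by 1.54 ± 0.11 and 3.52 ± 0.12 (log2, SE). H2-DMb2 was higher by 1.05 ± 0.18. H2-Oa and H2-Ob encode DO, which holds DM back in B cells, and neither passed, with log2 fold changes of 0.17 and -0.17. Both regulators were higher in tumour spots. Nlrc5 had 194 and 222 scaled CPM in TREAT and 400.3 and 395 in Vehicle tumour spots, against 12.01 and 20.4 (TREAT) and 25.6 and 38.4 (Vehicle) in brain spots, and Ciita had 35.0 and 30.9 (TREAT) and 39.8 and 51.0 (Vehicle), against 3.78 and 3.79 (TREAT) and 3.96 and 5.24 (Vehicle) (log2 fold changes 3.69 ± 0.15 and 3.20 ± 0.13). The enzyme H2-Ke6 was lower in tumour spots (-1.51 ± 0.13).

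**Figure D1:**
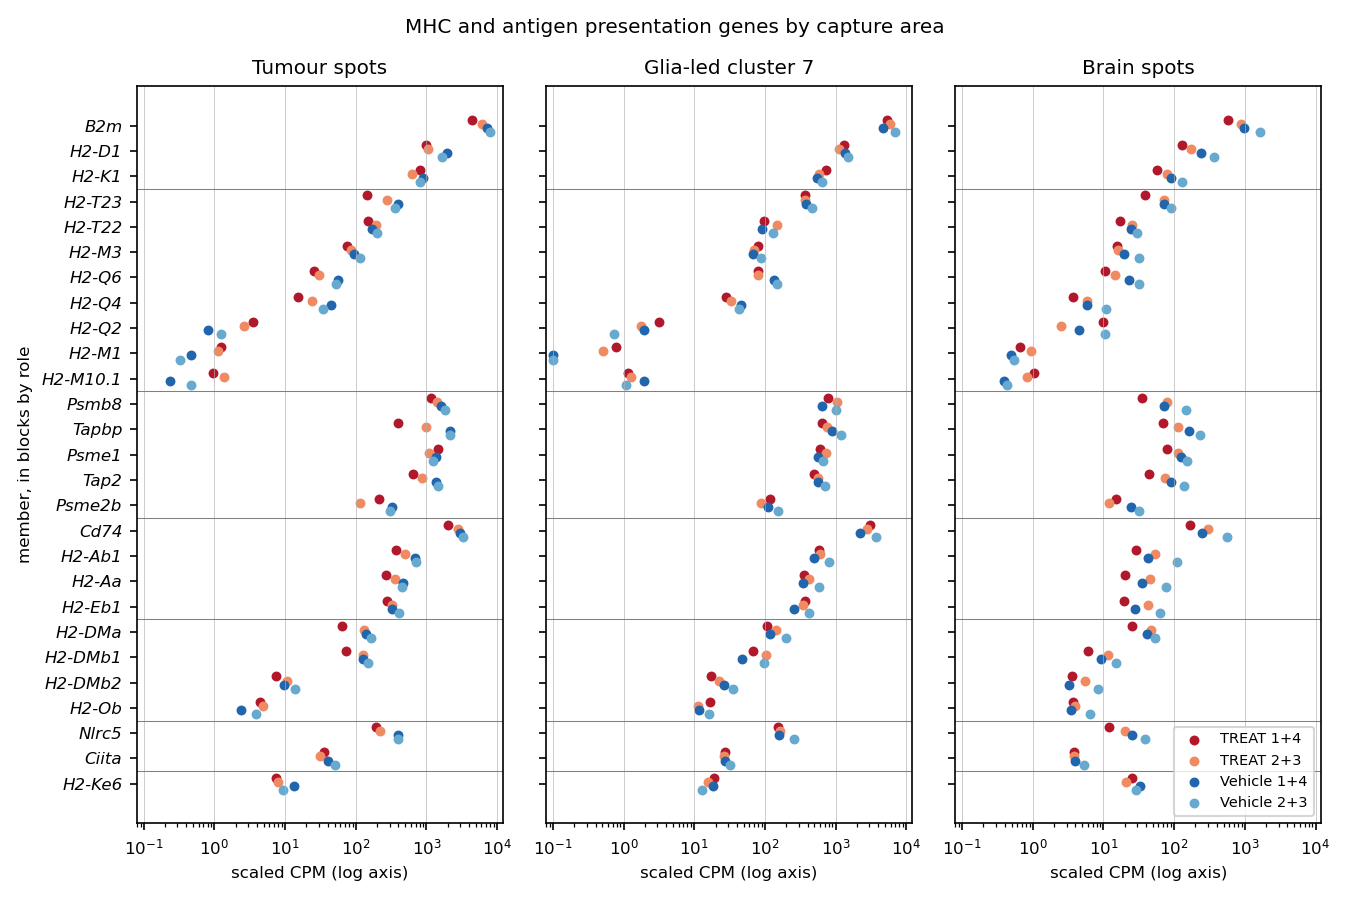
Levels of 27 named genes in scaled CPM on a log axis, in tumour spots, the glia-led cluster 7 and brain spots, with 1 point per capture area and grey lines between role groups. Values of 0 are drawn at 0.1. Class I, peptide supply and class II points sit further right in tumour spots and cluster 7 than in brain spots.

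**Figure D2:**
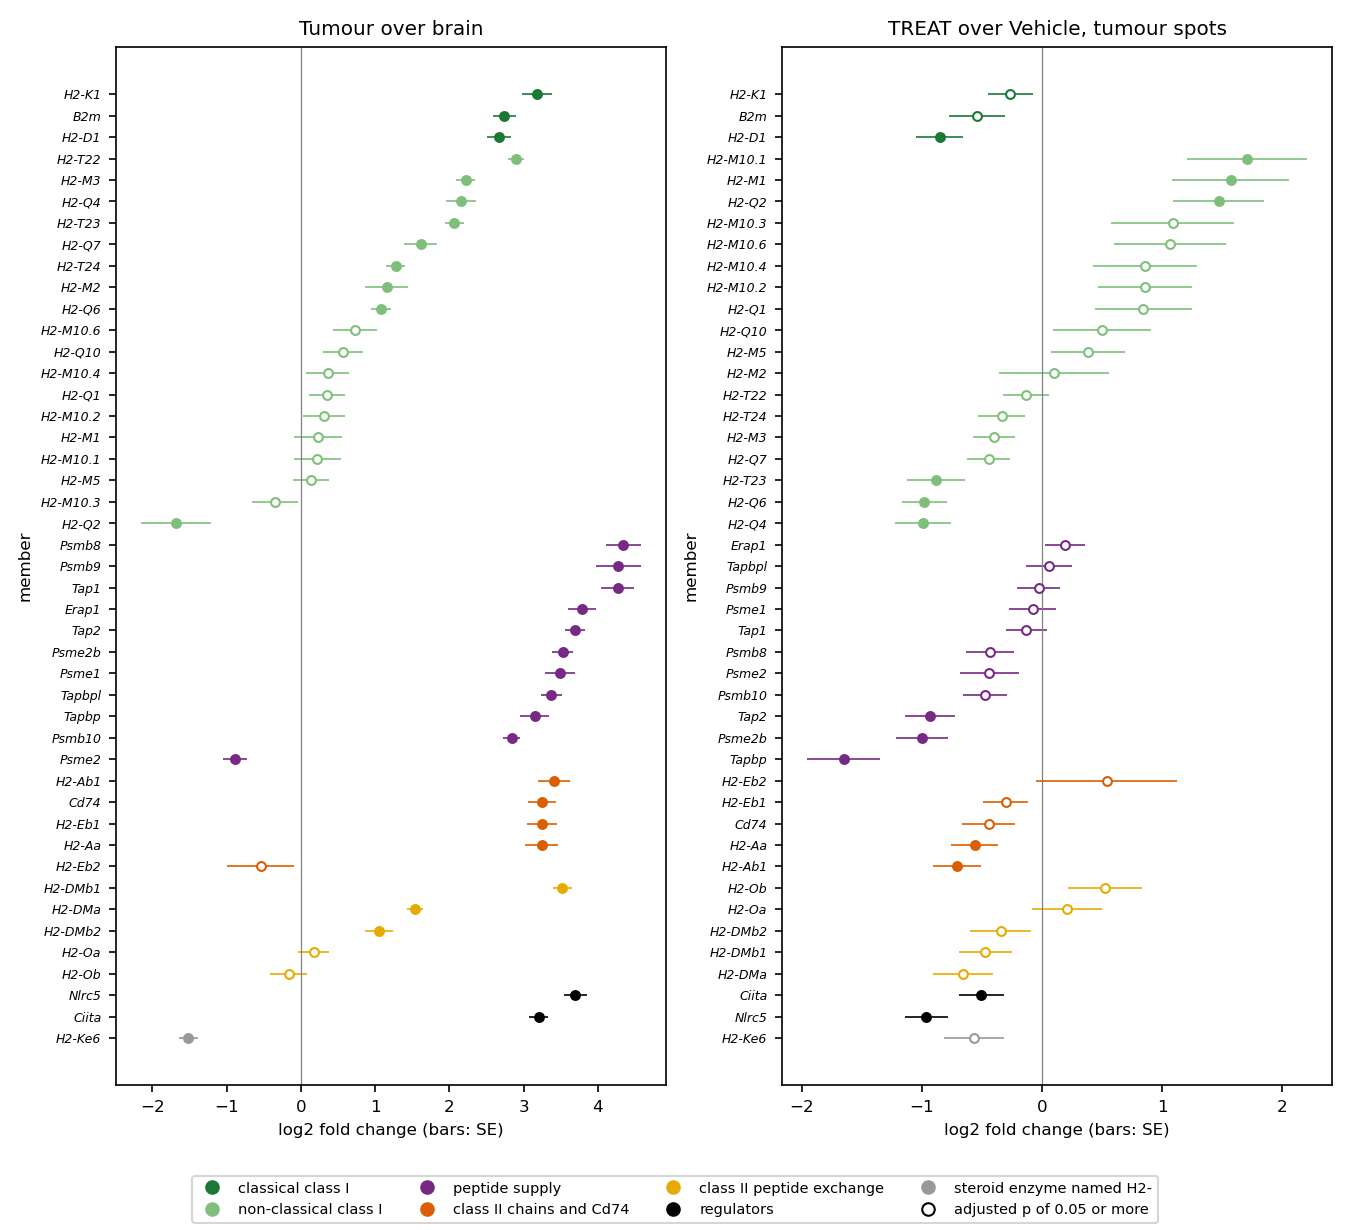
Log2 fold changes with SE for the 45 tested genes, tumour over brain on the left and TREAT over Vehicle in tumour spots on the right, coloured by role, with filled points where the adjusted p was under 0.05. On the left 30 genes are past the threshold above 0 and 3 below, and on the right 3 above and 11 below.

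Single tumour spots varied more in class II than in class I. Summed over the 23 class I chain genes, whose UMIs are mostly B2m, the tumour spot at the 90th percentile held 1.37 and 1.40 times the level of the spot at the 10th percentile in TREAT 1+4 and TREAT 2+3, and 1.454 and 1.503 times in Vehicle 1+4 and Vehicle 2+3. For the 10 class II genes, whose UMIs are mostly Cd74, this ratio was 2.47 and 2.16 in TREAT and 2.24 and 1.93 in Vehicle. The spread of single spots includes counting error, which weighs more on class II, so the difference in spread was not tested. In brain spots the class I ratio was 13.1 and 19.4 in TREAT and 20.6 and 11.2 in Vehicle, and the tenth percentile of class II was 0 in all 4 areas. The tenth of brain spots with the most class II UMIs held 67.5% and 52.9% of them in TREAT and 51.1% and 45.9% in Vehicle.

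Among brain spots, those close to the tumour had higher levels than those far from it. Steps were counted on the array to the nearest tumour spot of the same area, in either tissue piece. They can thus cross the gap between pieces and are not always distances within tissue. The class I sum in TREAT 2+3 was 5237 scaled CPM at 1 to 2 steps and 3045 at 3 to 5. It was 1651 at 6 to 10, 957 at 11 to 20 and 549 beyond 20. In TREAT 1+4 it was 1933 at 3 to 5 steps, 1318, 1000.4 and 387 in the same zones, and only 4 spots lay nearer. In Vehicle 1+4 it was 4472, 3109, 1648, 1049 and 395 from the nearest zone to the farthest. In Vehicle 2+3 it was 3426 in the nearest zone, which held 27 spots, then 4189.5, 2741, 1602 and 1181. The class I sum was thus lower in each zone than in the one before it in 3 of the 4 areas and from the second zone outward in Vehicle 2+3.

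Class II fell along the same zones. It was 1638, 1089, 679, 378 and 261 scaled CPM in TREAT 2+3 and 1155.5, 445, 281 and 74.8 from 3 to 5 steps outward in TREAT 1+4. It was 1299.9, 989, 489.6, 228 and 107 in Vehicle 1+4, and 1516, 1981, 1008, 504 and 365 in Vehicle 2+3. The interferon-induced list moved with it, at 1465 scaled CPM in the nearest of those zones and 215 in the farthest in TREAT 1+4, 6547 and 402 in TREAT 2+3, 5331 and 224 in Vehicle 1+4, and 3478.5 and 976 in Vehicle 2+3. The homeostatic microglia list was also higher near the tumour, at 577 against 302 scaled CPM in the nearest and farthest of those zones in TREAT 1+4, 1189 against 282 in TREAT 2+3, 1107.5 against 360.2 in Vehicle 1+4 and 859 against 411 in Vehicle 2+3. The proliferation list, high in the tumour, moved with them as well, at 183 and 75.8 scaled CPM in the nearest and farthest of those zones in TREAT 1+4, 788 and 86.2 in TREAT 2+3, 774 and 68.5 in Vehicle 1+4 and 762.3 and 205 in Vehicle 2+3. Macrophage markers were at 283 and 124 in TREAT 1+4, 749 and 154 in TREAT 2+3, 601 and 132 in Vehicle 1+4 and 613 and 302 in Vehicle 2+3. The part of tumour and myeloid cells in the class I and class II levels of these zones was not tested. Inside the tumour, class I was 6659 and 8515 scaled CPM in inner spots of TREAT and 7076 and 8679.6 in edge spots, and 10933 and 11258 in inner spots of Vehicle and 10592 and 11182 in edge spots. Class II was 3075 and 4249 in inner spots of TREAT and 3032 and 4074 in edge spots, and 4833 and 5284 in inner spots of Vehicle and 4449.7 and 4929 in edge spots, so it was slightly lower at the edge in each area, which was not tested.

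**Figure D3:**
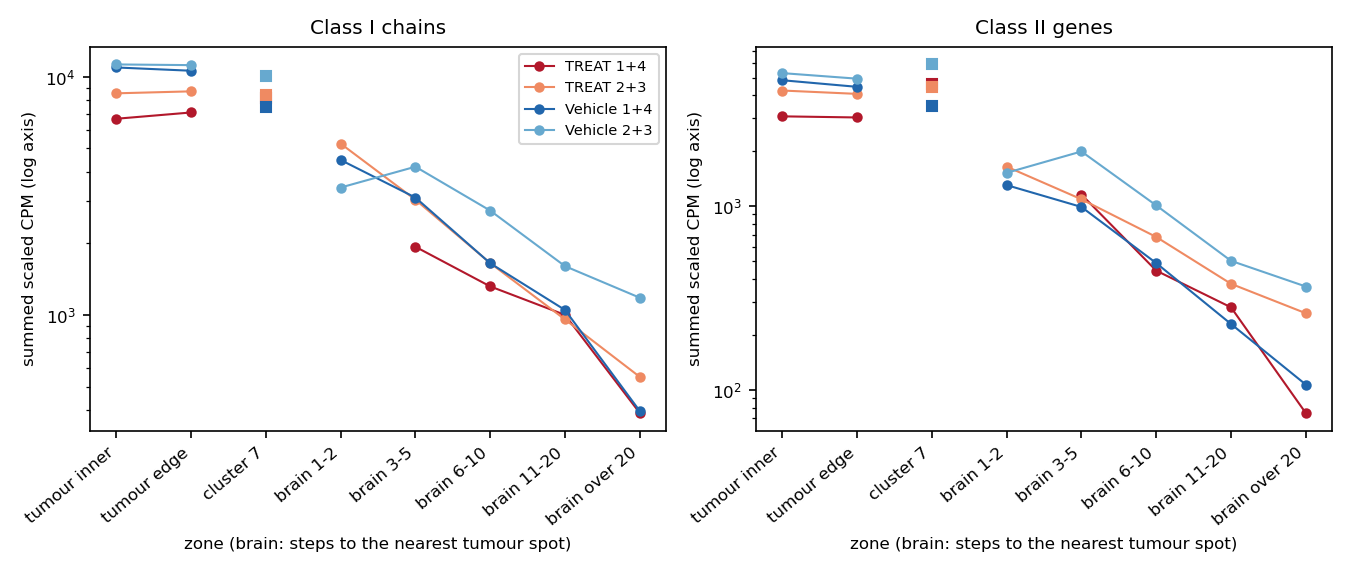
Summed scaled CPM (log axis) of class I chains, left, and class II genes, right, by zone and capture area. Zones run from inner and edge tumour spots through cluster 7 to brain spots at growing steps from the nearest tumour spot, in either piece. Lines join zones of one tissue class, zones with fewer than 20 spots are left out, and both sums fall from 3 to 5 steps outward in all 4 areas.

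**Figure D4:**
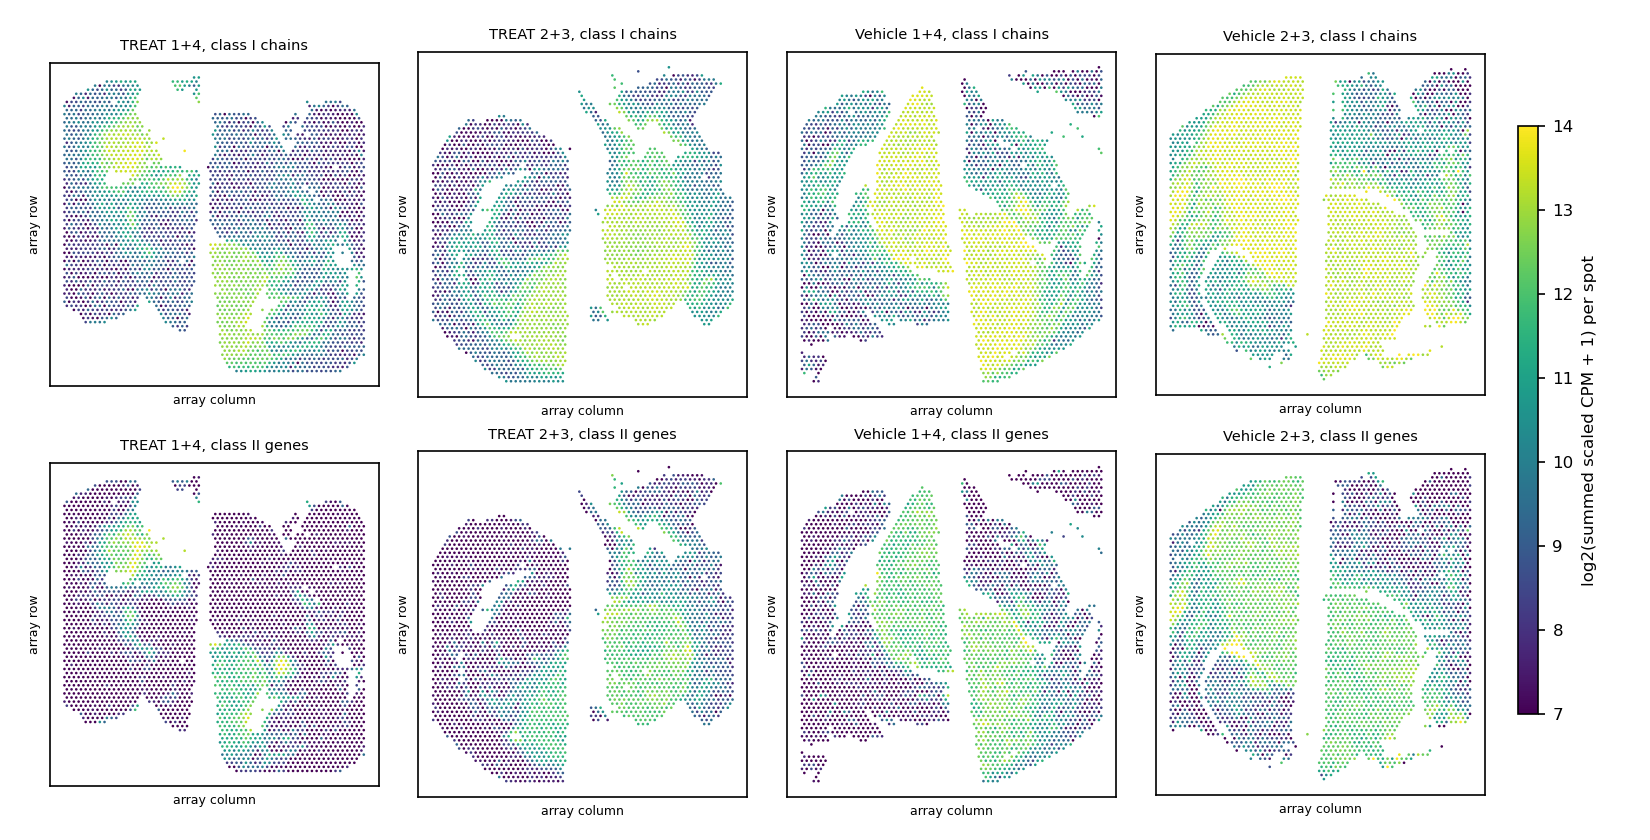
Maps of the kept spots of each capture area, coloured by log2 of summed scaled CPM plus 1, for class I chains above and class II genes below, with array column and row as axes and TREAT areas on the left. Class I colours the tumour almost evenly, while class II is brightest in patches at and beside it, among them a patch in the left piece of TREAT 1+4.

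Clusters 7 and 11, classed as neither tumour nor brain, reached the tumour's class II level. Cluster 11, led by Igkc and Igha, had class II sums of 5433 scaled CPM in TREAT 1+4 and 5904 and 6050 in Vehicle. These lay above the tumour spots of the same areas. Cluster 11 was divided by the scaling factor of brain spots, which raises its values beside those of tumour spots. That factor was 1.006 in TREAT 1+4 and 0.855 and 0.893 in Vehicle, beside 1.204 and 0.918 and 0.953 for tumour spots. TREAT 2+3 had only 3 spots in cluster 11. Cluster 7, led by Apod, Klk6, Serpina3n and C3, was left unnamed, since 5 of its 50 leading genes were markers of disease-associated microglia while its reactive astrocyte and oligodendrocyte lists were also high. It held 226 and 182 spots in TREAT, against 106 and 288 in Vehicle. Tumour markers were also present, and the proliferation list summed to 1494 and 1865 (TREAT) and 1235 and 1665 (Vehicle) scaled CPM there and the mesenchymal glioma list to 5778 and 4897 (TREAT) and 4589 and 5705 (Vehicle), beside 6462 and 4606 (TREAT) and 8072 and 7881 (Vehicle) in tumour spots. Its class II sum was 4610.2 and 4421 scaled CPM in TREAT and 3514 and 5890.3 in Vehicle, beside 3065 and 4223 (TREAT) and 4770.3 and 5223 (Vehicle) in tumour spots and 277 and 514 (TREAT) and 413 and 891 (Vehicle) in brain spots. Class II in cluster 7 was above that of the same area's tumour spots in TREAT 1+4, TREAT 2+3 and Vehicle 2+3 and below it in Vehicle 1+4. Its class I sum was 8159 and 8408 in TREAT and 7494 and 10101 in Vehicle, above the tumour's in TREAT 1+4 alone.

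Peptide supply in cluster 7 was below the tumour in every area, at 3502 and 4277 scaled CPM in TREAT and 3539.7 and 4745 in Vehicle, beside 5504 and 6054 (TREAT) and 8533 and 8835 (Vehicle) in tumour spots. H2-Q6 ran the other way, with 79.8 and 80.0 (TREAT) and 134 and 146 (Vehicle) in cluster 7, beside 25.3 and 30.5 (TREAT) and 55.4 and 53.2 (Vehicle) in tumour spots. H2-Ob, the DO chain known from B cells, had 16.6 and 11.2 in TREAT and 11.6 and 16.2 in Vehicle in cluster 7, beside 4.43 and 4.84 (TREAT) and 2.38 and 3.91 (Vehicle) in tumour spots. The disease-associated microglia list summed to 9913 and 3932 scaled CPM in cluster 7 of TREAT and 7273 and 9699 in Vehicle, beside 1755 and 1307 (TREAT) and 2380.3 and 2505 (Vehicle) in tumour spots, and the B and plasma cell list to 521 and 130.1 (TREAT) and 781 and 629 (Vehicle), beside 39.8 and 40.5 (TREAT) and 43.7 and 44.0 (Vehicle). Their part in the class II level was not tested, and cluster 7 was not set against the tumour in a test.

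The tissue pieces show where this signal lay. In TREAT 1+4 the right piece held 179 of the 182 tumour spots and had 3018 scaled CPM of class II in them, while the 142 cluster 7 spots of the left piece had 5700.0. In the 79 cluster 7 spots of the right piece class II was 2037. In TREAT 2+3 the right piece had 4552.5 in tumour spots and 5893.5 in cluster 7, and the left piece 3284.5 and 1929.5. In Vehicle 2+3 the left piece had 5572 in tumour spots and 6324 in cluster 7, and the right piece 4574 and 4167. In Vehicle 1+4 the right piece had 5241 in tumour spots and 3627 in cluster 7, and the left piece 4321 in tumour spots and too few cluster 7 spots for a value. Class II in cluster 7 thus ranged from 1929.5 to 6324 over the 7 pieces with a value, and class I from 6729.5 to 10294.

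**Figure D5:**
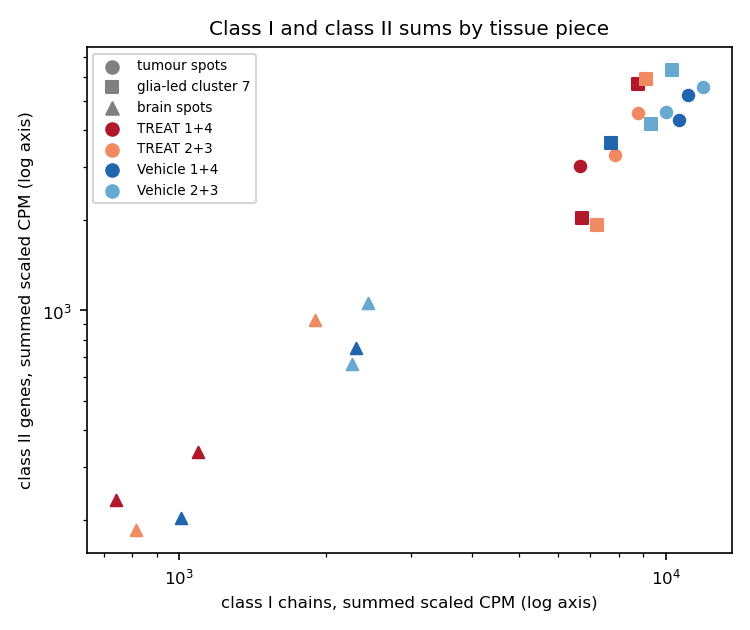
Summed scaled CPM of class I chains (x) and class II genes (y), both on log axes, for tumour spots, cluster 7 and brain spots of each tissue piece with at least 20 such spots. Tumour and cluster 7 points share the upper right, cluster 7 spreads mainly along the class II axis, and brain points lie lower on both.

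Spot by spot, the correlation of class I with class II was higher over brain spots than over tumour spots in each of the 4 areas, a difference that was not tested. Spearman's rho between the sums was 0.54 and 0.67 over brain spots of TREAT 1+4 and TREAT 2+3 and 0.53 and 0.62 over those of Vehicle 1+4 and Vehicle 2+3, and it was 0.26 and 0.62 over TREAT tumour spots and 0.18 and 0.40 over Vehicle tumour spots. In brain spots class I followed the interferon-induced list with rho of 0.68 and 0.84 in TREAT and 0.66 and 0.61 in Vehicle, and the homeostatic microglia list with 0.61 and 0.66 in TREAT and 0.50 and 0.50 in Vehicle. In tumour spots the rho of class I with the interferon-induced list was 0.30 and 0.35 in TREAT and 0.30 and 0.25 in Vehicle, and with the proliferation list it was -0.21 and -0.23 in TREAT and -0.09 and -0.37 in Vehicle. These are descriptions over 182 to 2828 spots of 1 library each, which share that library's depth and neighbouring tissue.

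TREAT against Vehicle was compared within tumour spots. Tapbp, Tap2, H2-D1, H2-Ab1, H2-Aa, Nlrc5 and Ciita were among 11 members that were lower in TREAT, and 3 members of very low level, H2-M1, H2-M10.1 and H2-Q2, were higher. That makes 14 of 45 tested members past the threshold by edgeR's quasi-likelihood test, beside 32.2% of all genes, and 11 lower beside 18.4% of all genes and 3 higher beside 13.8%. Over all genes the direction went with the level. Of genes with a mean of at least 5 scaled CPM in tumour spots 31.7% were lower and 2.74% higher, and of genes under 5 scaled CPM 0.565% were lower and 28.5% higher. Of the 31 members in the upper class 11 were lower and 0 higher by edgeR. Of the 14 in the lower class 0 were lower and 3 higher. The members' shares were thus close to the background of their level and are no finding about them as a group. DESeq2 called 12 of 45 lower and 1 higher, beside 17.7% and 2.68% of all genes. An unadjusted p under 0.05 by edgeR was found for 25 of the 45 members and for at least 32.2% of all genes. Here and for the groups below in tumour spots, such unadjusted counts lack an exact share over all genes and are no result.

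The members' median log2 fold change was -0.34, beside 0.08 over all genes. With library totals in place of TMM scaling the median of all genes was 0.50 and that of the members 0.08, and 12 members were then higher and 6 lower, beside 39.9% and 7.17% of all genes. The 14 called members kept their direction in the alternatives on tumour spots in which they were tested. Tapbp, Nlrc5 and H2-Q6 passed in all 14 of these, and H2-Q2 in the 13 in which it was tested. Tumour spots were deeper in TREAT, with a median of 32845 and 36476.5 UMIs against 21279.5 and 22516 in Vehicle, and the part of depth in these differences was not tested.

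Of the classical class I genes, H2-D1 was lower. It had 974 and 1052 scaled CPM in TREAT 1+4 and TREAT 2+3, against 1925 and 1644 in Vehicle 1+4 and Vehicle 2+3, with a log2 fold change of -0.85 ± 0.20 (SE, n = 2 areas per group, edgeR adjusted p = 0.00474). It missed the threshold with library totals (adjusted p = 0.0675), with a minimum of 10 CPM and without Vehicle 1+4 (0.0732). B2m had 4478 and 6162 in TREAT, against 7219.5 and 7932 in Vehicle. The groups did not overlap, but the difference missed the threshold (-0.54 ± 0.23, edgeR adjusted p = 0.0811). H2-K1 had 812 and 632 in TREAT, against 883 and 801 in Vehicle, and the groups overlapped (-0.26 ± 0.19, edgeR adjusted p = 0.271).

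Among non-classical genes H2-Q6, a Qa-2 family gene, had 25.3 and 30.5 scaled CPM in TREAT, against 55.4 and 53.2 in Vehicle (-0.98 ± 0.19, edgeR adjusted p = 0.00129). H2-Q4 had 15.1 and 24.3 in TREAT, against 44.2 and 34.6 in Vehicle (-0.99 ± 0.23, adjusted p = 0.00494), and H2-T23 had 144 and 272, against 395 and 362 (-0.88 ± 0.24, adjusted p = 0.0125). H2-T23 missed the threshold with library totals (adjusted p = 0.11) and, like H2-Q4, with a minimum of 10 CPM. H2-T23 was lowest in TREAT 1+4, and its value in TREAT 2+3 lay between that and the Vehicle values. H2-T22 and H2-M3 did not pass (-0.13 and -0.40). The 3 higher members rested on few counts. H2-Q2 had 25 and 66 UMIs in the tumour sums of TREAT, against 14 and 34 in Vehicle (3.46 and 2.64 against 0.812 and 1.22 scaled CPM, 1.47 ± 0.38). H2-M1 had 9 and 28 UMIs, against 8 and 9, and H2-M10.1 had 7 and 34, against 4 and 13. Of 13 alternatives in which they were tested, H2-M1 passed in 9 and H2-M10.1 in 10, and neither passed with DESeq2.

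In peptide supply Tapbp differed most. It had 396 and 987 scaled CPM in TREAT 1+4 and TREAT 2+3, against 2144 and 2155 in Vehicle 1+4 and Vehicle 2+3. The Vehicle areas were nearly equal, both TREAT areas lay below them, and TREAT 1+4 lay lowest. The log2 fold change was -1.65 ± 0.30 (edgeR adjusted p = 0.000947), and -2.52 to -1.13 over the alternatives run on tumour spots. By tissue piece Tapbp had 373 in the right piece of TREAT 1+4 and 823 and 1044 in the left and right pieces of TREAT 2+3, against 1959 and 2338 in Vehicle 1+4 and 2299.9 and 1886 in Vehicle 2+3. By p it stood 755th among the 3577 genes that were lower in TREAT.

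Tap2 had 642 and 871 scaled CPM in TREAT, against 1354 and 1477 in Vehicle (-0.93 ± 0.21, edgeR adjusted p = 0.00361), while its transporter partner Tap1 had 238 and 239 in TREAT, against 257 and 252 in Vehicle, and did not pass (-0.13 ± 0.17, adjusted p = 0.559). Psme2b had 213 and 115 in TREAT, against 325 and 306 in Vehicle (-0.999 ± 0.22, adjusted p = 0.00317). Tap2 and Psme2b missed the threshold with a minimum of 10 CPM. Psmb8 had 1176 and 1423 in TREAT, against 1596 and 1839 in Vehicle, with no overlap and a p that missed the threshold (-0.43 ± 0.20, adjusted p = 0.0999). Psme1 overlapped between groups (-0.08 ± 0.20). In all, 3 of the 11 peptide supply genes were lower and 0 higher by edgeR, 5 had an unadjusted p under 0.05, and the group's median was -0.43, or -0.02 with library totals. Genes in one pathway thus had unequal values, and the difference between them was not tested.

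Of the class II chains H2-Ab1 and H2-Aa were lower in TREAT. H2-Ab1 had 376 and 502 scaled CPM in TREAT, against 686 and 720.0 in Vehicle (-0.71 ± 0.20, edgeR adjusted p = 0.014). H2-Aa had 268 and 362 in TREAT, against 465 and 445 in Vehicle (-0.56 ± 0.19, adjusted p = 0.0372). Both missed the threshold with library totals, with a minimum of 10 CPM and without Vehicle 1+4, and H2-Aa also without TREAT 1+4, without Vehicle 2+3 and with spots split by marker sums. Cd74 had 1992 and 2752 in TREAT, against 3015 and 3313 in Vehicle (-0.44 ± 0.22, adjusted p = 0.121), and H2-Eb1 overlapped between groups (-0.30 ± 0.19). None of the 5 peptide exchange genes passed by edgeR (2 had an unadjusted p under 0.05), H2-DMa coming nearest with 63.2 and 130.3 in TREAT, against 138 and 165 in Vehicle (adjusted p = 0.0533).

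Both regulators were lower in TREAT. Nlrc5, the class I transactivator, had 194 and 222 scaled CPM in TREAT, against 400.3 and 395 in Vehicle, and the groups were well apart (-0.96 ± 0.18, edgeR adjusted p = 0.001). Ciita, the class II transactivator, had 35.0 and 30.9 in TREAT, against 39.8 and 51.0 in Vehicle (-0.51 ± 0.19, adjusted p = 0.0471), and it missed the threshold in 7 of the 14 alternatives, with library totals, DESeq2 and the label numbers as a block among them. H2-Ke6 did not pass (-0.56).

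Other lists were summed over the same tumour spots. Macrophage and monocyte markers summed to 413 and 351 scaled CPM in TREAT, against 526 and 578 in Vehicle, over 14 genes. Disease-associated microglia markers summed to 1755 and 1307, against 2380.3 and 2505, over 10 genes, and dendritic cell markers to 371 and 303, against 469.9 and 494, over 10 genes. T and NK cell markers summed to 142 and 116, against 198 and 153, over 13 genes, and endothelial markers to 151 and 198, against 271 and 272, over 10. By edgeR 5 of the 14 macrophage, 5 of the 10 disease-associated microglia, 2 of the 10 dendritic cell, 4 of the 13 T and NK cell and 3 of the 10 endothelial markers were lower and 0 of them higher. Of the tumour markers 8 of 23 proliferation and 9 of 18 mesenchymal glioma genes were lower and 0 higher. These counts stand beside 18.4% of all genes that were lower, and 31.7% of those at 5 scaled CPM or more. No gene of these lists was at 0 in all areas, and their part in the class I and class II differences was not tested. The 37 interferon-induced genes summed to 17031 and 16116 in TREAT, against 17315 and 17506 in Vehicle. The class I sum was 6761 and 8539 in TREAT, against 10877 and 11245 in Vehicle. That sum is mostly B2m, whose own difference missed the threshold. Gene by gene, the median log2 fold change was 0.10 over the 21 tested class I chain genes and 0.01 over the interferon-induced genes. The gaps of the 2 sums were not set against each other in a test.

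Genes around the pathway were counted from set lists. Of 12 interferon gamma pathway genes 4 were lower in TREAT tumour spots and 0 higher by edgeR (5 had an unadjusted p under 0.05), with a median of -0.25. The 4 were the regulatory factors Irf2 (-1.22), Irf8 (-1.24) and Irf9 (-0.88) and the inhibitor Socs1 (-1.05). Irf8, needed by macrophages and some dendritic cells, had 34.2 and 39.3 scaled CPM in TREAT, against 77.5 and 93.2 in Vehicle. Irf1, another of these factors, did not pass (-0.15). Of 7 class II promoter factors Creb1, Rfxap and Rfxank were lower (-1.03, -0.64 and -0.65) and Nfyc was higher (0.64). Of 4 class I folding partners Pdia3, which forms the loading complex with tapasin, was lower, with 468 and 825 in TREAT, against 1727 and 1666 in Vehicle (-1.41 ± 0.24, edgeR adjusted p = 0.000532).

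Of 4 tested endosomal genes of class II processing Ctsl and Ctsb were lower (-1.17 and -0.52) and Ctss, which trims the invariant chain, had 658 and 570.5 scaled CPM in TREAT, against 583 and 617 in Vehicle and did not pass. Of 5 class I-like genes outside the H2 region Mr1, which presents vitamin metabolites, was higher (0.75), and Hfe and Azgp1 were lower (-0.73 and -0.80). Of 6 co-stimulation and checkpoint ligands Icosl was higher (0.60), Cd40 and Pdcd1lg2 were lower (-0.98 and -1.44), and Cd274, which encodes PD-L1, had 119 and 108 in TREAT, against 90.2 and 114 in Vehicle (0.12). These shares are to be read beside the 32.2% of all genes that passed.

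In brain spots no member passed between TREAT and Vehicle. By edgeR 0 of 45 tested members were called, beside 0% of 19445 genes, and 14 members had an unadjusted p under 0.05, beside 3823 genes in all. DESeq2 called 5 members lower, H2-D1, H2-Q6, Psme2b, Tap2 and Tapbp, beside 2.19% of all genes. The members' median log2 fold change was -0.43, beside 0.01 over all genes, and 35 of 45 lay below 0. The areas ranked TREAT 1+4 lowest and Vehicle 2+3 highest for the class I sum, at 894 and 1296 scaled CPM in TREAT and 1493 and 2373 in Vehicle. For the class II sum TREAT 1+4 was again lowest and Vehicle 2+3 highest, at 277 and 514 (TREAT) and 413 and 891 (Vehicle), but TREAT 2+3 lay above Vehicle 1+4.

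H2-D1 had 131 and 171 scaled CPM in TREAT brain spots, against 242 and 367 in Vehicle brain spots (-0.96 ± 0.22, edgeR adjusted p = 0.164). Tapbp had 69.0 and 113 in TREAT, against 161 and 234 in Vehicle (-1.07 ± 0.26, adjusted p = 0.164), and Cd74 had 167 and 299.9, against 246 and 550.2 (-0.72 ± 0.39, adjusted p = 0.335). Without TREAT 2+3, which leaves TREAT 1+4 as the lone TREAT area and assumes that it varies like the Vehicle areas, 15 of 43 tested members were lower, B2m, H2-K1, H2-D1, Cd74, H2-Aa and H2-Ab1 among them, beside 1.42% of all genes. Without TREAT 1+4 the 2 members called, both lower, were H2-D1 and Psme2b, beside 1.78% of all genes. Brain spots of the areas also differ in array steps to the nearest tumour spot, in either piece. Over 20 steps away lay 941 of 2828 in TREAT 1+4 and 744 of 2217 in TREAT 2+3. In Vehicle 1+4 it was 261 of 2017 and in Vehicle 2+3 it was 42 of 1761. Brain spots more than 5 steps away called 0 members as well, with a median of -0.36. The areas also differed in brain structures. Cluster 12, led by Penk and Ppp1r1b, held 210 and 153 TREAT spots, against 0 and 4 in Vehicle. Cluster 5, led by Syt2 and Nap1l5, held 64 and 105, against 402 and 259. Class I sums were 481 and 1499 in TREAT in cluster 12, and 1224 and 1101 (TREAT) and 1603 and 1918 (Vehicle) in cluster 5. The part of structure in the brain values was not tested.

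The effect of TREAT in tumour spots was then set against that in brain spots by an interaction term. Of 46 tested members 0 passed by edgeR, beside 0% of 20018 genes, and DESeq2 called 0. An unadjusted p under 0.05 by edgeR was found for 4 members, a count with no share over all genes beside it. The nearest was H2-Q2 (2.16 ± 0.55, adjusted p = 0.0941), which passed only without TREAT 1+4. For H2-D1 the interaction was 0.19 ± 0.27, for Cd74 0.29 ± 0.31, for Nlrc5 0.07 ± 0.26 and for Tapbp -0.64 ± 0.25 (adjusted p = 0.221). A call in tumour spots and none in brain spots is therefore not shown to be a difference between them.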

How the data were processed

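Spatial transcript counts of 4 capture areas, 2 labelled TREAT and 2 Vehicle, were used. The deposited counts are whole UMIs per gene and spot, and the submitters' processing notes name Space Ranger 2.1.1, mm10, R 4.4.1 and Seurat, without parameters. Tissue spots below 500 UMIs were dropped and the rest clustered (scanpy 1.11.5, Leiden resolution 0.6) without the members and interferon-induced genes. Clusters were classed as tumour, brain or other by marker lists, with no doublet calling, since spots are regions. UMIs were summed per area and class and tested with edgeR 4.0.16 (R 4.3.3), using the quasi-likelihood test, TMM scaling, filterByExpr and Benjamini-Hochberg adjustment over all genes tested, at 0.05. The area was a block in tumour against brain and in the interaction. Standard errors were the log2 fold change over the square root of F.

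Alternatives covered DESeq2 1.42.0, scaling, filters, clustering, region choice and left-out areas, and the closing section gives their effect. With 200 simulated changed genes, the test of TREAT against Vehicle in tumour spots recovered 56% of 2-fold and 91% of 4-fold changes (19141 genes). In brain spots it recovered 60% and 92% (19027 genes), for tumour against brain 81% and 96% (19148 genes), and for the interaction 36% and 69% (19309 genes). The simulated counts took their spread from the trend over genes of like level, without each gene's own departure from it. Real recovery may therefore be lower. In brain spots edgeR called 0 genes. Yet all 10 striatal markers were higher in TREAT (log2 fold change 0.63 to 2.52) with an unadjusted p under 0.05. Named with values were, per role, the 4 members of highest mean level and every member called in TREAT against Vehicle or the interaction, with others named where stated or summarised in ranges. The members, lists and tests were chosen with earlier results of these data known. Deviations of areas with the same number (1+4, 2+3) correlated over genes at 0.0737 in tumour and -0.0699 in brain spots. This sets 1 difference per group against another, so it cannot show whether same-numbered areas were processed together. The labels do not say so either, and the main tests did not pair them.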

Additional observations from a re-analysis of the deposited data

How the results depend on the processing

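In tumour spots, TREAT against Vehicle called 14 members, 4 with a minimum of 10 CPM (1 higher, 3 lower), 18 with library totals and 10 to 19 with an area left out. With the label numbers as a replicate block it called 15, and whether the numbers pair the areas is not known. Chosen after seeing the data, cluster 7 alone called 0 of 34 and the whole tissue 7, all lower. In brain spots the count of 0 became 5 with DESeq2 and 0 to 15 with an area left out, and it stayed 0 under the block. Tumour against brain called 33 members, and 30 to 35 in all settings, but H2-Q2 turned to 0.64 (log2) with cortical clusters as brain. The interaction called 0 members, 0 to 1 with an area left out, and 0 under the block. Over all genes, 6254 of 19451 were called in tumour spots (2677 higher, 3577 lower), 3970 with DESeq2, 2475 with a minimum of 10 CPM and 6245 under the block. With library totals 7752 were higher and 1395 lower, and 142 were called in cluster 7 alone and 1373 in the whole tissue. The member counts of these settings are to be read beside these numbers and are no result about the members. Counts with an area left out rest on a group of 1 area. In brain spots 0 genes became 480 with DESeq2, 4 with spots split by marker sums, 415 without TREAT 1+4, 309 without TREAT 2+3, 2 with cortical clusters and 1 beyond 5 steps. In the interaction 0 became 702 with DESeq2, 220 with at least 1000 UMIs per spot, 919 without TREAT 1+4, 831 without TREAT 2+3, 72 without Vehicle 2+3 and 857 with cortical clusters. The cause of these shifts was not tested. In simulated data 36% to 81% of 2-fold changes were recovered, depending on the comparison, so changes of that size can be missed. Real recovery may be lower, also for larger changes, since the simulated spread followed the trend over genes of like level.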
